A study of Mus musculus with 12 samples.

Results

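The S100 genes encode small calcium-binding proteins, and 10 of them were followed across 12 RNA-Seq libraries of mouse tumor organoids: S100a1, S100a4, S100a6, S100a8, S100a9, S100a10, S100a11, S100a14, S100a16 and S100g. They were chosen by name as S100 family members, without a threshold on their values, and are 10 of the 24906 genes listed in the deposited tables. All 10 passed the filter on low values in both growth environments. Organoids are small 3D structures that tissue cells form in culture. All 12 libraries came from small intestine tumor organoids labelled Smad4KO;BRAFV600E/+;pINDUCER-SMAD4, so the control libraries carried the same alleles and the same construct label as the treated ones. The Smad4 deletion was driven by Villin-CreERT2, which acts in intestinal epithelium, and pINDUCER-SMAD4 is a lentiviral vector from which doxycycline (dox) switches SMAD4 on. SMAD4 is the transcription factor shared by the TGFβ and BMP pathways, and the comparisons ask what its re-expression changes and whether the surrounding matrix matters.

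The matrix BME, an extract of basement membrane in which organoids grow in 3D, held 6 of the cultures. Organoid lines 682, 700 and 889 each gave 1 untreated library there, and lines 700 and 889 each gave 1 library with 4 µg/mL dox. A further BME library of line 682 has a treatment label that reads dox with the word mock. The title of that library reads as a dox library, while the study counts 4 vehicle and 2 dox libraries in BME, so it was kept in the control arm and its values are also given apart. The other 6 cultures grew on tissue culture plastic, where lines 560, 700 and 889 each gave 1 untreated and 1 dox library. Cultures were collected after 48 h. Libraries of the same line come from the same tumor organoids, so a dox library and the untreated library of its line form a pair. The BME and plastic comparisons share no library but share lines 700 and 889. The libraries held 14531315 to 16335807 rebuilt reads in BME and 17027646 to 21070432 on plastic. Levels are in FPKM (fragments per kilobase of transcript, scaled to library size), which correct for gene length, and changes are differences of log2(FPKM + 1), which understate the change of low genes.

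S100 proteins carry a pair of EF-hand motifs, and most act as dimers that change shape when they bind calcium and then bind target proteins. S100A10 is an exception that has lost calcium binding and is held in the active shape. S100A10 and S100A11 pair with annexins at membranes, S100A8 and S100A9 together form calprotectin, an antimicrobial complex best known from neutrophils, and S100A4 binds non-muscle myosin and is known for its link to cell motility and metastasis. S100A6 binds the ubiquitin ligase adaptor CACYBP, S100A14 is found mainly in epithelia, and S100A1 is best known from heart and skeletal muscle. S100G, the small intestinal calbindin, carries calcium through enterocytes and is a classical target of the vitamin D receptor.

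Of the 10 genes, 9 lie on chromosome 3 (build NCBIM37). A first block from 90314956 to 90499643 holds 11 S100 genes and no other coding gene. Among them are the 7 followed here as S100a1, S100a14, S100a16, S100a4, S100a6, S100a8 and S100a9. S100a11 (93324410 to 93330209) and S100a10 (93359002 to 93368565) form a second block 2824.8 kb further on. S100g lies alone on chromosome X from 159399924 to 159402531, on the minus strand. S100a1 (minus strand) and S100a13 (plus strand) start 42 bp apart in opposite directions. In the RefSeq promoter table (built on GRCm38.p6, its bases located here in NCBIM37 by exact match), 8 of the 10 genes had an entry. The 4 stretches before the start printed here belong to the most abundant member (S100a11), the member with the lowest unadjusted p in BME (S100a6), the member with the lowest unadjusted p for a difference between environments (S100a16), and the member on chromosome X (S100g). Each runs 5′ to 3′ along the gene's strand and ends at the base before the annotated start of the gene. Capitals mark the AP-1 motif TGANTCA and the SMAD box CAGACA, on either strand.
S100a11 promoter, chr3:93324168-93324409 (plus strand): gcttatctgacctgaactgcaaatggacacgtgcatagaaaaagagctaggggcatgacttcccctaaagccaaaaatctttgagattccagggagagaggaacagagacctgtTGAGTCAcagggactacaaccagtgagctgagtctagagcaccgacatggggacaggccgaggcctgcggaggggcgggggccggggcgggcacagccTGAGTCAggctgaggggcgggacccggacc
S100a6 promoter, chr3:90416566-90416815 (plus strand): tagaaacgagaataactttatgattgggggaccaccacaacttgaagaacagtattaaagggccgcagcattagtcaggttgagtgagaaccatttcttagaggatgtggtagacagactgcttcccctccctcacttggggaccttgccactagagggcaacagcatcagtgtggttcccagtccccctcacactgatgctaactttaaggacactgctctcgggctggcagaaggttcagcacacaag
S100a16 promoter, chr3:90340926-90341175 (plus strand): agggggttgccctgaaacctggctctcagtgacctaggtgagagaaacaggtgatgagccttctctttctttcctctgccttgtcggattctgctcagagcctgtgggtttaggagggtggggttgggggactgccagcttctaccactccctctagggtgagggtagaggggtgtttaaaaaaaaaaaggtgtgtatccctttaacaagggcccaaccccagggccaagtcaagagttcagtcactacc
S100g promoter, chrX:159402532-159402781 (minus strand): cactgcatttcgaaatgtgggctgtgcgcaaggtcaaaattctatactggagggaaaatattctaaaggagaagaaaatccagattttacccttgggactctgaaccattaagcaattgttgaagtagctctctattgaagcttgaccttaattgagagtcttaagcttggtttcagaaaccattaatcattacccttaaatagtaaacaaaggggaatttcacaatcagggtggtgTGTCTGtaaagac

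In the 250 bases before the start, the AP-1 motif was present in 6.75% of 32851 RefSeq promoters and in promoters of 2 of the 8 genes. S100a11 held it at 2 places, 136 and 38 bases before the RefSeq start. S100a16 held it once, in a second RefSeq promoter (chr3:90344818-90345067) and not in the one printed. CAGACA was present in 17.1% of all promoters and in those of S100a8 and S100g. The other motifs searched on both strands were the SMAD palindrome GTCTAGAC (0.167% of promoters, none of the 8 genes) and GGCGCC (9.59%, S100a1). In the printed stretches no match overlapped another. These are matches of letters only.

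The tissue label was checked against marker genes. Summed over 10 intestinal epithelial markers, the level was 9796 to 11440 FPKM in the 2 BME dox libraries and 5971 to 7045 in the 4 controls, and these ranges did not overlap. On plastic it was 12790 to 17920 with dox and 13620 to 15890 without. Markers of fibroblasts summed to at most 7.54 FPKM, of endothelium to at most 4.14 and of lymphocytes to at most 1.85 in any library. In BME Smad4 itself measured 17.2 to 27.3 FPKM with dox and 6.23 to 10.3 in the controls. The mock library of line 682, at 10.3 FPKM, was near the untreated library of its line, at 8.88 (change 0.19). In the BME dox pairs the Smad4 change was 1.28 in line 700 and 1.97 in line 889. On plastic Smad4 measured 18.1 to 73.6 FPKM with dox and 1.54 to 4.76 without. In bulk RNA, a change in the share of cells that express a gene and a change in RNA per cell cannot be told apart.

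The 10 genes covered more than 3 orders of magnitude, with S100a11 at the top and S100a9 at the bottom in both environments. In BME the order of mean FPKM was S100a11 (2618), S100a6 (931), S100a10 (437), S100a14 (165), S100a1 (155), S100a16 (76.6), S100g (4.54), S100a4 (1.22), S100a8 (0.977) and S100a9 (0.786). S100a11 ranked 20th and S100a6 101st among all genes by mean FPKM. The ranges of S100a11 and S100a6 were apart, and so were those of S100a1 and S100a16 and of S100a16 and S100g. S100a14 and S100a1 crossed between libraries, and so did each neighbouring pair among S100g, S100a4, S100a8 and S100a9. S100a6 lay above S100a10 in every library although their ranges overlapped.

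On plastic S100a11 was the most abundant of all 24906 genes, with a mean of 14205 FPKM. It was followed by S100a6 (4206, ranked 9th), S100a10 (1214.5, ranked 67th), S100a14 (403), S100a16 (305), S100a1 (191), S100g (11.5), S100a4 (10.1), S100a8 (4.18) and S100a9 (2.36). S100a14 and S100a16 crossed between libraries, and so did each neighbouring pair among S100g, S100a4, S100a8 and S100a9. The 10 genes made up 2.32% to 4.21% of all FPKM in a plastic library and 0.547% to 0.925% in a BME library. S100a11 alone was 51.0% to 67.0% of the S100 sum in BME and 63.4% to 72.7% on plastic. S100a6, S100a10, S100a11 and S100a16 were higher in every plastic library than in every BME library, 4 of 10 against 3.94% of the genes tested in both environments. The tables were normalized separately, so this is a description with no test.

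**Figure D1:**
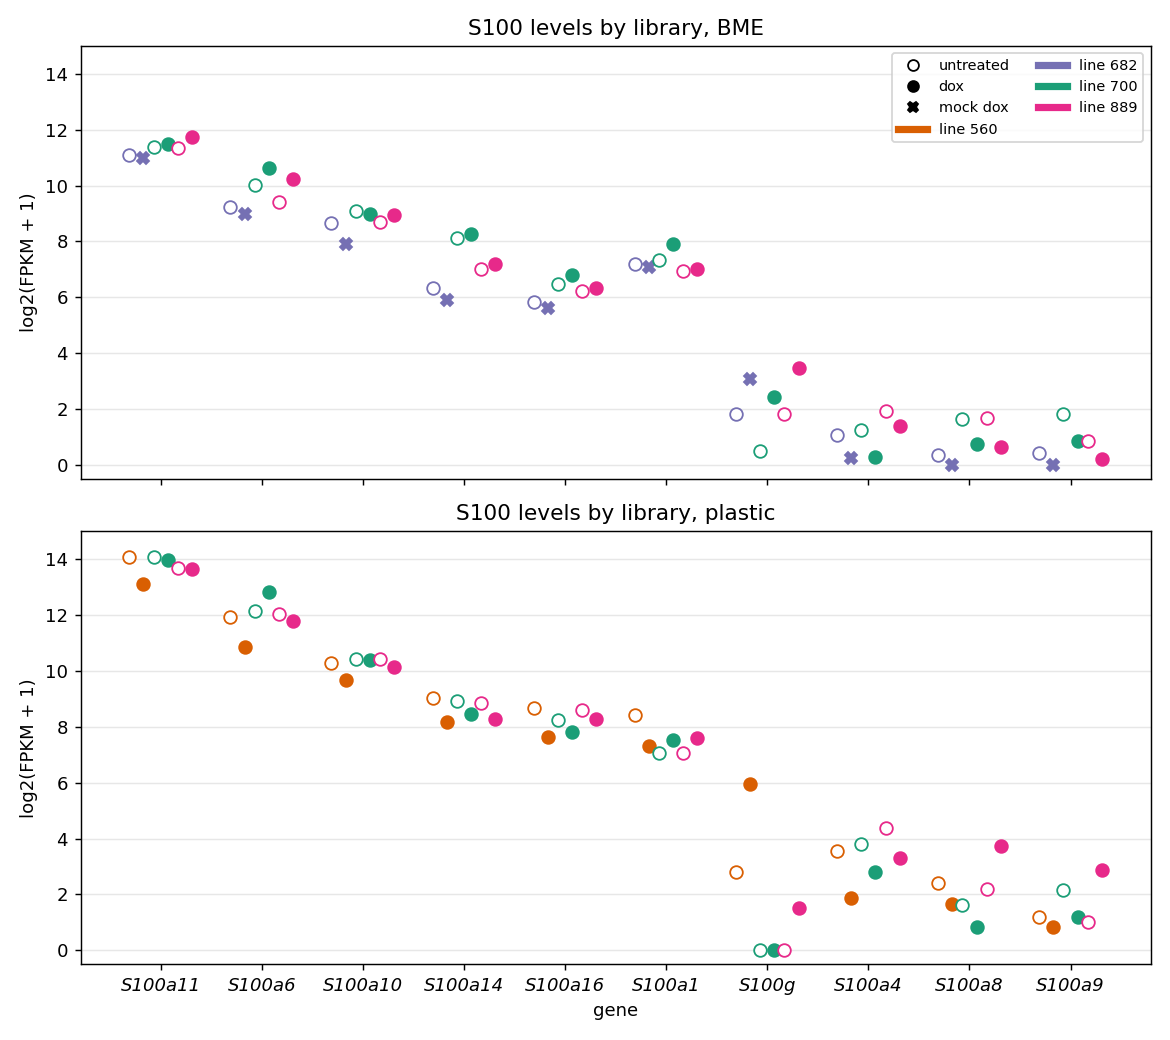
Level of the 10 S100 genes in every library, as log2(FPKM + 1) on the vertical axis, for BME (upper panel) and plastic (lower panel). Open circles are untreated, filled circles dox and crosses the mock library, with colors for organoid lines. S100a11, S100a6 and S100a10 lead in both panels, and S100g, S100a4, S100a8 and S100a9 form a low group in which libraries scatter widely.

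**Figure D2:**
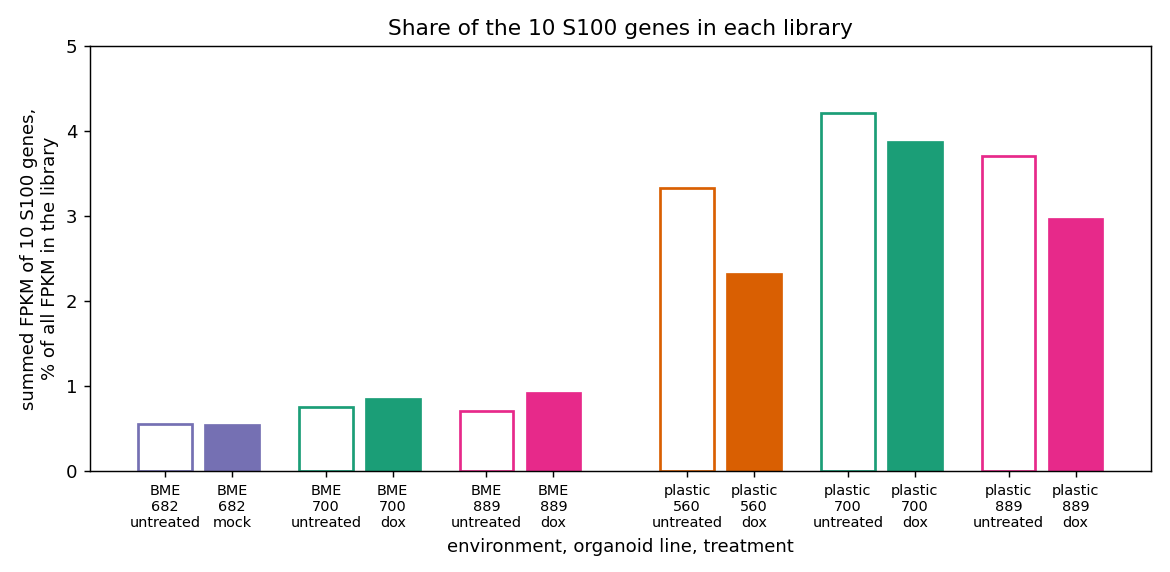
Summed FPKM of the 10 S100 genes as a percentage of all FPKM, 1 bar per library, starting at 0. Open bars are untreated and filled bars are dox or mock. BME bars lie between 0.547% and 0.925%, plastic bars between 2.32% and 4.21%, and each plastic dox bar is below the untreated bar of its line. In line 700 on plastic this holds for the share only. There the summed FPKM of the 10 genes was higher with dox (25414 against 24050), and so was the FPKM of all genes (655929 against 571850).

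No S100 member passed the test for a dox change in BME or on plastic, and none passed the test for a difference of that change between the environments. In BME, limma called 0 of the 10 genes (adjusted p under 0.05 and a change over 1 in size), against 0.0231% of 12996 genes tested. At an unadjusted p under 0.05, 1 of 10 passed (S100a6), against 4.09% of all genes, and with a change over 1 as well it was again S100a6, against 0.954%. The changes were positive for 7 members (49.0% of all genes) and negative for 3 (51.0%), with a median of 0.40 beside -0.01 over all genes tested. On plastic, limma also called 0 of 10, against 0.0324% of 12333 genes. At an unadjusted p under 0.05, 2 of 10 passed (S100a4 and S100a14), against 8.29% of all genes, and with a change over 1 in size as well 1 of 10 (S100a4), against 3.64%. There the changes were positive for 3 members (51.1% of all genes) and negative for 7 (48.9%), with a median of -0.26 beside 0.01 over all genes. limma-voom on the rebuilt reads called none of the 10 in either environment. Smad4, the gene that dox switches on, was not called by the main test either. Its change was 1.36 in BME (SE 0.27, limma adjusted p 0.959) and 3.42 on plastic (SE 0.55, limma adjusted p 0.162).

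Pair by pair, 6 members (S100a1, S100a6, S100a11, S100a14, S100a16 and S100g) were higher with dox in both BME pairs, against 27.2% of all genes tested. S100a4, S100a8 and S100a9 were lower in both, 3 of 10 against 29.5%. On plastic, 5 members (S100a4, S100a10, S100a11, S100a14 and S100a16) were lower with dox in all 3 pairs, against 18.7% of all genes, and 0 were higher in all 3, against 18.6%. The median change over the members was 0.13 in line 700 and 0.14 in line 889 in BME, smaller than the 0.40 of the unpaired comparison. In line 560 on plastic, 9 of 10 members were lower with dox, with a median change of -0.91, while 49.7% of all genes tested were higher. The median was -0.25 in line 700 and -0.15 in line 889. Without line 560, 5 members were lower in both remaining plastic pairs, against 35.8% of all genes. In line 682 in BME, 9 of 10 members were lower in the mock library than in the untreated one, with a median change of -0.31, while 48.1% of all genes tested were higher. These included S100a11 (-0.11), S100a14 (-0.43) and S100a16 (-0.21).

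**Figure D3:**
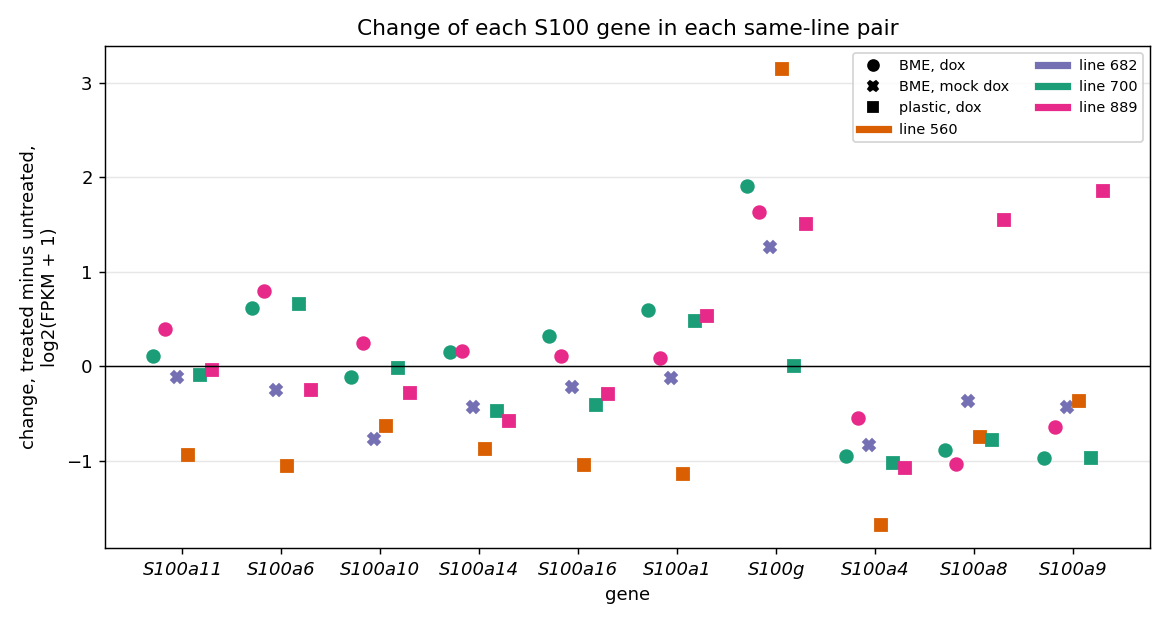
Change of each S100 gene in each same-line pair, treated minus untreated, in log2(FPKM + 1). Circles are BME dox pairs, crosses the BME mock pair and squares plastic dox pairs, with colors for organoid lines. S100a4 lies below 0 in every pair, S100g lies at or above 0 in every pair, and for S100a11, S100a14 and S100a16 the circles lie above 0 and the squares below it.

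The annexin partners among the S100 genes are S100a10 and S100a11. S100a11 in BME measured 2173, 2642 and 2608 FPKM untreated (lines 682, 700 and 889), 2013 in the mock library and 2850 and 3423 with dox (lines 700 and 889). Both dox libraries lay above all 4 controls, which held for 2 of 10 members (the other was S100a6) and for 6.33% of all genes tested. No member had both dox libraries below all controls (5.83% of all genes). The change was 0.41 (SE 0.20, limma adjusted p 0.959), and it missed the threshold. Within the pairs it was 0.11 in line 700 and 0.39 in line 889, a mean of 0.25, and with the mock library on the dox side it was 0.13. On plastic S100a11 measured 17106, 17185 and 13145 FPKM untreated (lines 560, 700 and 889) and 8917, 16109 and 12767 with dox. The groups overlapped, and the dox library of line 560 was the lowest of the 6. The change was -0.36 (SE 0.38, limma adjusted p 0.861). Within the pairs it was -0.94 in line 560, -0.09 in line 700 and -0.04 in line 889.

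S100a10, which holds annexin A2 in a complex at the cell membrane, measured 407, 550 and 419 FPKM untreated in BME (lines 682, 700 and 889), 238 in the mock library, and 508 and 497 with dox. The 2 dox values lay inside the control range. The change was 0.38 (SE 0.33), but 0.07 with the line as a block and -0.21 with the mock library on the dox side. On plastic S100a10 measured 1258, 1370.1 and 1370.0 FPKM untreated (lines 560, 700 and 889) and 811, 1349 and 1129 with dox. Each dox library was below its pair, by only 0.02 in line 700, and the groups overlapped.

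S100a6 had the lowest unadjusted p of the members in BME. It measured 604, 1026 and 686 FPKM untreated (lines 682, 700 and 889), 507 in the mock library, and 1571 and 1194 with dox. Both dox libraries were above every control. The change was 1.01 (SE 0.31), the limma adjusted p was 0.959, and the two-sided exact permutation p over the libraries was 0.0667, the smallest that 2 against 4 libraries allow. Within the pairs the change was 0.61 in line 700 and 0.80 in line 889, and with the mock library on the dox side it was 0.39. The summed epithelial markers were also higher in both BME dox libraries than in every control, and all 10 had a positive unpaired change, from 0.04 (Cdx2) to 1.13 (Krt8). In the line 889 pair Cdx2 (-0.33), Cldn7 (-0.14), Lgals4 (-0.12) and Krt20 (-0.10) were lower with dox. The markers' part in the S100a6 and S100a11 values was not tested. On plastic S100a6 measured 3872, 4559 and 4217 FPKM untreated (lines 560, 700 and 889) and 1868, 7189 and 3532 with dox. Here the dox libraries lay on both sides of the untreated ones. The change was -0.22 (SE 0.51), and it was 0.26 without the dox library of line 560.

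S100a14 and S100a16 are neighbours in the first block and had the most alike patterns of any pair of members. Their Pearson r was 0.847 over 12 libraries, each environment centred on its own mean. This is a description of libraries that share lines and normalization. S100a14 in BME measured 78.9, 275 and 129 FPKM untreated (lines 682, 700 and 889), 58.3 in the mock library, and 306 and 145 with dox. The highest 2 values were both of line 700, and the groups overlapped. The change was 0.89 (SE 0.65), it was -0.04 with the mock library on the dox side, and within the pairs it was 0.15 in line 700 and 0.16 in line 889.

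On plastic S100a14 measured 525, 489 and 459 FPKM untreated (lines 560, 700 and 889) and 285, 352 and 306 with dox. All 3 dox libraries were below all 3 untreated ones, which held for 2 of 10 members (the other was S100a4) and for 7.26% of all genes tested. No member had all dox libraries above all untreated ones (7.87% of all genes). The change was -0.64 (SE 0.20, limma adjusted p 0.499), and the two-sided exact permutation p was 0.1, the smallest that 3 against 3 libraries allow.

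S100a16 in BME measured 56.1, 89.0 and 74.3 FPKM untreated (lines 682, 700 and 889), 48.2 in the mock library, and 112 and 80.2 with dox. The groups overlapped, since the line 889 dox value lay below the line 700 untreated value. The change was 0.53 (SE 0.28). Within the pairs it was 0.32 in line 700 and 0.11 in line 889, a mean of 0.22, and with the mock library on the dox side it was 0.07. On plastic it measured 411, 298 and 384 FPKM untreated (lines 560, 700 and 889) and 198, 225 and 313 with dox. Each dox library was below its pair, and only the line 889 dox value was above the lowest untreated one. The change was -0.58 (SE 0.26, limma adjusted p 0.614).

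S100a4, the member linked to motility, was the one gene of the 10 that was lower with dox in all 5 pairs, against 8.06% of the genes tested in both environments, and 0 of 10 were higher in all 5, against 8.7%. On plastic it measured 10.7, 13.1 and 19.7 FPKM untreated (lines 560, 700 and 889), from 76, 89 and 143 rebuilt reads. With dox it measured 2.63, 5.91 and 8.84 FPKM, from 19, 35 and 49 reads. All 3 dox libraries were below all untreated ones. The change was -1.26 (SE 0.41, limma adjusted p 0.528), and the two-sided exact permutation p was 0.1. In BME it was near the floor, with 1.13, 1.36 and 2.82 FPKM untreated (lines 682, 700 and 889), 0.196 in the mock library, and 0.218 and 1.62 with dox, from 1 to 16 reads. There the groups overlapped, and the change of -0.29 (SE 0.52) was 0.26 without the dox library of line 700 and -0.75 with the line as a block.

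S100a8 and S100a9, the calprotectin genes, rested on few reads. S100a8 in BME measured 0.293, 2.12 and 2.20 FPKM untreated (lines 682, 700 and 889), was listed at 0 in the mock library, and measured 0.684 and 0.560 with dox, from 0 to 8 reads per library. S100a9 measured 0.352, 2.55 and 0.828 FPKM untreated, was listed at 0 in the mock library, and measured 0.814 and 0.169 with dox, from 0 to 14 reads. Both were lower in each of the 2 BME dox pairs, while the groups overlapped.

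On plastic the calprotectin genes differed between lines. In line 560 S100a8 measured 4.31 FPKM untreated and 2.16 with dox, and in line 700 2.08 and 0.792. It was higher with dox in line 889, at 12.2 against 3.53. S100a9 measured 1.29 FPKM untreated and 0.782 with dox in line 560, and 3.43 and 1.26 in line 700. It was again higher with dox in line 889, at 6.36 against 1.04. That library gave 43 reads of S100a8 and 38 of S100a9, the most of any of the 12 for each gene. Summed over 18 myeloid markers, the level in BME was 33.6 to 41.3 FPKM with dox and 42.0 to 61.2 in the controls, which did not overlap. On plastic it was 16.3 to 68.0 FPKM with dox and 31.4 to 74.0 without. Elane was listed at 0 in every library, Ptprc reached at most 0.0958 FPKM, Mpo 0.150, Ngp 0.0726 and Lyz2 0.662. The highest levels in the sum were those of Cd14 (10.9 to 36.8 FPKM), Cd68 (2.70 to 38.7 FPKM) and Ly6g (0.606 to 31.2 FPKM). In the line 889 plastic dox library, where S100a8 and S100a9 had their highest levels, Cd68 was also at its highest, 38.7 FPKM against 2.70 in the untreated library of that line (698 and 64 reads). In the same pair Cd14 measured 25.7 against 19.8 FPKM, and Ly6g measured 1.63 against 6.24. The part of these markers in the S100a8 and S100a9 values was not tested.

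S100g was higher with dox in 4 of the 5 pairs and was listed at 0 in both libraries of the other. In BME it measured 2.51, 0.430 and 2.54 FPKM untreated (lines 682, 700 and 889), from 12, 2 and 13 reads, and 4.36 and 9.96 with dox, from 18 and 50 reads. The mock library, at 7.41 FPKM and 34 reads, lay between the dox libraries and above the untreated library of its line, so the dox and control arms overlapped. The change was 1.13 (SE 0.69, limma adjusted p 0.959), and 1.77 with the line as a block. All 3 untreated libraries lay below the mock library and both dox libraries.

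On plastic S100g depended on the line. Line 560 measured 5.99 FPKM untreated and 60.9 with dox, from 39 and 394 reads. Line 700 was listed at 0 in both, and line 889 was listed at 0 untreated and measured 1.84 FPKM with dox, from 9 reads. The change was 1.55 (SE 1.58), and it was -0.18 without the dox library of line 560. Vdr, the vitamin D receptor, was lower with dox in both BME pairs (4.58 against 5.94 FPKM in line 700 and 5.55 against 13.8 in line 889) and also in the mock library (4.39 against 8.53). It was higher with dox in all 3 plastic pairs, with 5.28 against 1.02 FPKM in line 560, 1.10 against 0.522 in line 700 and 0.416 against 0.261 in line 889, the last from 29 and 24 reads. Trpv6, the calcium channel of the enterocyte surface, stayed at or under 0.137 FPKM, and Cyp24a1, the vitamin D catabolic enzyme, at or under 0.421 FPKM.

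S100a1 measured 145, 159 and 122 FPKM untreated in BME (lines 682, 700 and 889), 134 in the mock library, and 241 and 129 with dox. The line 889 dox value lay inside the control range, and the change was 0.34 (SE 0.26). On plastic S100a1 measured 346, 131 and 134 FPKM untreated (lines 560, 700 and 889) and 157, 183 and 194 with dox. The line 560 untreated library was the highest of the 6, and the change was -0.04 (SE 0.40). Without that library it was 0.42.

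The difference of the dox change between plastic and BME was tested as an interaction over 11977 genes. limma called 0 of the 10 members, against 0.0% of all genes, and at an unadjusted p under 0.05 1 of 10 passed (S100a16), against 2.53%, or 1.33% with a difference over 1 in size. The difference was negative for 7 of 10 members, against 48.6% of all genes, with a median of -0.73 beside 0.01. S100a11, S100a14 and S100a16 were higher with dox in both BME pairs and lower in all 3 plastic pairs, 3 of 10 against 2.25% of all genes, and no member showed the opposite pattern (2.61%). Their differences were -0.77 (SE 0.38) for S100a11, -1.53 (SE 0.70) for S100a14 and -1.12 (SE 0.39) for S100a16, each with a limma adjusted p of 1. S100a6 differed by -1.22 (SE 0.62). The BME arms hold line 682 and the plastic arms line 560, so lines and environments are partly confounded. With lines 700 and 889 only, the differences were -0.32 for S100a11, -0.69 for S100a14, -0.57 for S100a16 and -0.51 for S100a6.

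**Figure D4:**
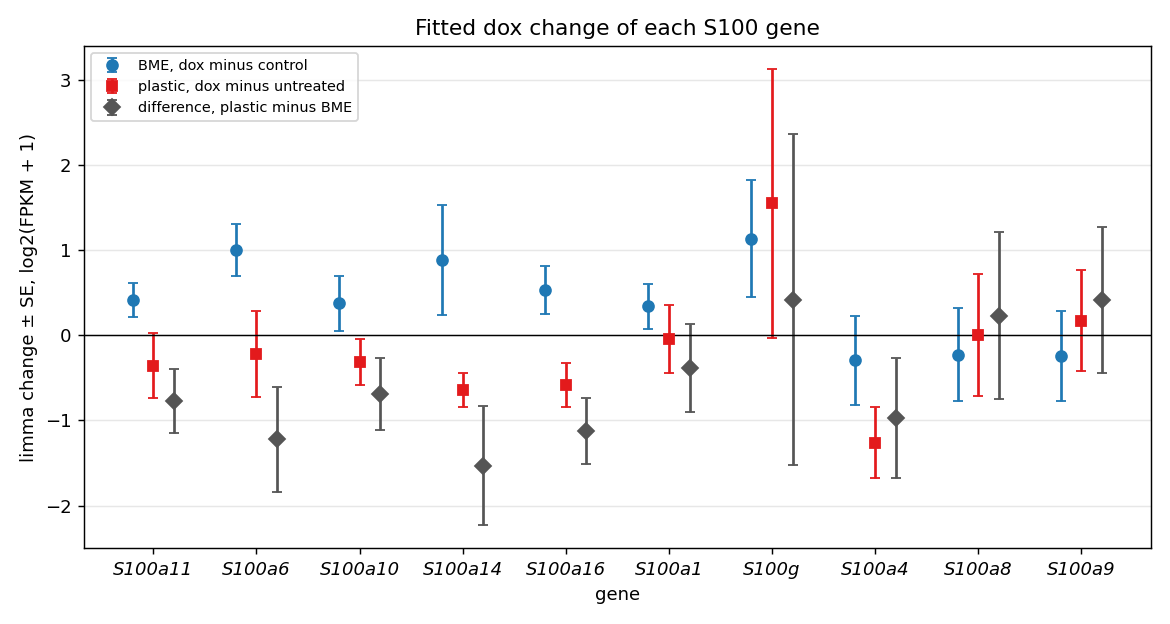
limma change of each S100 gene with dox in BME (circles), on plastic (squares) and the difference between them (diamonds), in log2(FPKM + 1), with bars of 1 SE. The BME circles of S100a11, S100a6, S100a10, S100a14 and S100a16 lie above 0 and their plastic squares below it, and S100g has the widest bars, on plastic (SE 1.58) and for the difference (SE 1.94).

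Of 9 other S100-named genes looked for, 8 were in the tables, including S100pbp, which encodes a binding protein and not an S100 protein. S100a7a, an epidermal relative in the first block, measured 151, 185 and 200.2 FPKM untreated on plastic (lines 560, 700 and 889) and 43.5, 69.7 and 49.3 with dox. Every dox library was below every untreated one. The change was -1.72 (SE 0.24, limma adjusted p 0.149), and the two-sided exact permutation p was 0.1. In BME S100a7a lay between 0.233 and 2.76 FPKM, and it was lower with dox in both pairs.

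S100a13, known for its part in the release of proteins without a signal peptide, measured 45.4, 40.6 and 32.4 FPKM untreated on plastic (lines 560, 700 and 889) and 34.5, 111 and 104 with dox. It was higher with dox in lines 700 and 889 and lower in line 560. Its change was 0.90 on plastic (SE 0.46, limma adjusted p 0.657) and 0.62 in BME (SE 0.31, limma adjusted p 0.959). Within the BME dox pairs it was 0.20 in line 700 and 0.38 in line 889, and in the mock pair it was -0.26. S100a3 was lower with dox in all 3 plastic pairs, at 1.67 against 4.97 FPKM in line 560, 5.54 against 7.62 in line 700 and 4.04 against 6.95 in line 889. S100a2, S100a5 and S100b stayed at or under 1.76 FPKM in every library, and S100z reached 4.96. The filter on low values left S100b untested in both environments, S100a3 in BME and S100a5 on plastic. Where tested, none of these genes was called. Between the S100 genes of the whole chromosome 3 span lie 61 other coding genes, and none of those tested was called. In BME 8 were tested, all with a positive change (49.0% of all genes) and a median of 0.57. On plastic 17 were tested, 7 positive and 10 negative (48.9% of all genes), with a median of -0.30. At an unadjusted limma p under 0.05, 1 of 8 passed in BME (4.09% of all genes) and 5 of 17 on plastic (8.29%).

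The genes that S100 proteins work with were counted from lists. All 12 annexins were tested in both environments, and none was called. Their changes were positive for 11 and negative for 1 in BME (median 0.20) and positive for 7 and negative for 5 on plastic (median 0.12). Anxa2, the partner of S100a10, measured 839 and 892 FPKM in the BME dox libraries and 271 to 619 in the controls, a change of 1.12 (SE 0.39, limma adjusted p 0.959). Within the pairs it was 0.75 in line 700 and 0.44 in line 889. On plastic Anxa2 measured 1036.5 to 2301 FPKM with dox and 1242 to 1539 without, and the change was 0.11. Anxa2 is given here as the partner of a member and not by the rule for named genes.

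Anxa7, Anxa13 and Anxa6 differed in 1 direction in all 5 dox pairs, by more than 0.5 on average, and so did 1 gene of the list of other partners and receptors, Plaur. Over the 5 pairs the mean change was 0.58 ± 0.18 (SD, n = 5 pairs) for Anxa7, 0.87 ± 0.40 for Anxa13, and -0.77 ± 0.50 for Anxa6. Lines 700 and 889 enter in both environments, so the pairs are not independent replicates. The genes were also chosen by these same values. Of all genes tested in both environments, 8.7% were higher in all 5 pairs and 8.06% lower, at any size of change. The unpaired limma change of Anxa6 in BME was 0.22 (SE 0.40), and it was -0.33 with the line as a block. Plaur, the urokinase receptor of the plasminogen system that S100A10 also takes part in, had a mean change of 1.20 ± 0.67 (SD, n = 5 pairs). It measured 72.2 and 73.6 FPKM with dox and 28.7 to 56.9 in the BME controls. On plastic it measured 209, 381 and 330 FPKM untreated (lines 560, 700 and 889) and 305, 1577 and 974 with dox. In BME its limma change was 0.70 (SE 0.28), with an adjusted p of 0.959. The plastic change was 1.38 (SE 0.61), with a limma adjusted p of 0.617.

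Of 23 listed partners and receptors in the tables, 20 were tested in BME and 19 on plastic, and none was called. The unpaired changes in BME were positive for 15 (49.0% of all genes) and negative for 5, with a median of 0.16. On plastic they were positive for 10 (51.1%) and negative for 9, with a median of 0.01. Ager, the receptor RAGE for several secreted S100 proteins, measured 1.71 to 3.47 FPKM in BME and 0.0975 to 0.919 on plastic. Of 12 genes of vitamin D and calcium transport, 4 were tested in BME (2 positive, 2 negative) and 3 on plastic (2 positive, 1 negative), and none was called.

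Across the 12 libraries, each environment centred on its own mean, S100a6 followed S100a10 (r = 0.819) and S100a11 (r = 0.818), and S100a8 followed S100a9 (r = 0.711). S100g ran opposite to S100a4 (r = -0.622) and S100a10 (r = -0.62). For the 4 members with the widest spread, the 3 most alike genes among 11967 were ranked by the same Pearson correlation. They were Rbp2 (0.92), Cmc4 (0.908) and Ugt1a1 (0.902) for S100g, Mettl21a (0.871), Nip7 (0.855) and Tk2 (0.832) for S100a8, Akr1b3 (0.941), Cct2 (0.893) and Mlf1 (0.892) for S100a4, and Smim14 (0.869), Zfp994 (0.849) and Aph1a (0.84) for S100a9. These coefficients are descriptions over libraries that share lines. With few reads of S100a8, S100a9 and S100g, and of S100a4 in BME, they carry counting error. The most alike genes are the top of 11967 compared over 12 libraries, so their coefficients can be high through that choice alone.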

How the data were processed

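RNA-Seq values of 12 organoid libraries were used. The authors used kallisto for quantification and DESeq2 for group comparisons. The submitters' processing notes name the build mm9, and versions are not given in the sources used here. The authors deposited FPKM, 1 table per environment, each normalized on its own 6 libraries, so levels were not tested across tables. Comparison tables of dox against no dox were also deposited, with fold changes and p-values that were not used. Only their mean normalized count, a signal over libraries that the authors deposited, was used, to rebuild whole reads from FPKM. Among values under 10 reads, the share within 0.05 reads of a whole number was 87.6% to 89.6% in the BME libraries and 86.7% to 90.0% in the plastic libraries. Rebuilt reads describe depth and enter 1 alternative (limma-voom).

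The test was limma 3.58.1 in R 4.3.3 (lmFit and trended eBayes, two-sided) on log2(FPKM + 1), for genes averaging 0.5 FPKM or more. The Benjamini-Hochberg adjustment ran over all genes tested, and calls needed both an adjusted p below 0.05 and a change above 1 in size. The environments were compared by an interaction with a term for the environment. The fit was tested on simulated data with 200 changed genes. The simulated libraries had no differences between organoid lines, unlike these libraries, so that test does not show what the fit can call here. Single members were compared by exact permutation tests. The members and lists were chosen with earlier results of these data known, so list counts are descriptions. The rule for named list genes covered the annexin, partner and vitamin D lists, and not the marker lists. It took genes called in either environment. Otherwise it took genes with 1 direction in all 5 dox pairs and a mean change over 0.5 in size. All 10 members and the other S100 genes were named. The likeness ranking took the 4 members with the widest spread and the 3 genes most correlated with each.

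Libraries of 1 line were taken as pairs, since they come from the same organoids. Their deviations from the group means correlated at 0.744 in BME and at 0.247 to 0.612 on plastic. Alternatives were another pseudocount, no filter, another scaling, a replicate block, limma-voom, other placings of the mock library, lines 700 and 889 only, and leaving out each library. Promoter sequences are RefSeq's, and the positions are from the NCBIM37 annotation.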

Additional observations from a re-analysis of the deposited data

Results flagged for a closer look

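S100a11, S100a14 and S100a16 had dox changes of opposite sign in BME and on plastic, positive in both BME dox pairs and negative in all 3 plastic pairs. In the BME mock pair of line 682 all of them were negative (-0.11, -0.43 and -0.21), and with the mock library counted with dox the S100a14 change in BME was -0.04. On plastic the S100a11 change was -0.94 in line 560, but only -0.09 in line 700 and -0.04 in line 889. The dox change on plastic minus that in BME was -0.77 for S100a11, -1.53 for S100a14 and -1.12 for S100a16, on the log2(FPKM + 1) scale. Line 682 is in BME only and line 560 on plastic only, and with the shared lines 700 and 889 alone the differences were -0.32, -0.69 and -0.57, in the same order. The difference was tested as an interaction in limma and passed for none of these genes (adjusted p 1 for each, over 11977 genes). No library of the BME control arm stood apart from the others for any of the 10 S100 genes by Dixon's criterion. With 4 values per gene this criterion can flag little, and libraries that are low together hide each other. For S100a14 both control libraries of line 682 were low, at 58.3 (mock) and 78.9 FPKM, against 275 in line 700 and 129 in line 889.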

How the results depend on the processing

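No S100 gene was called under any alternative run, and no named gene changed its call. Calls over all genes did vary. In BME the count of 3 (all higher) became 1 with a pseudocount of 0.1 (lower), 1 with limma-voom (higher), 0 with the replicate block (157 genes at an unadjusted p under 0.05 and a change over 1), 0 with the mock library left out and 0 with it counted with dox, and it lay between 0 and 37 when 1 library was left out, with 37 without the dox library of line 700 and 0 without any other. On plastic the count of 4 became 10 with a pseudocount of 0.1, 0 with no filter, 7 with the replicate block and 10 with limma-voom (3 higher and 7 lower, against 3 higher and 1 lower), and it lay between 0 and 55 when 1 library was left out, with 55 without the dox library of line 700, 2 without the dox library of line 889 and 0 without any other. For the difference between environments, the count of 0 became 5 with no filter and stayed 0 otherwise. The cause was not tested. The replicate block, which pairs the libraries of a line, changed no call of a named gene.

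Of 696 recomputed values, 41 changed sign and 655 did not. With a pseudocount of 0.1, S100a8 was 0.10 in BME, -0.16 on plastic and -0.27 for the difference, and with limma-voom it was -0.23 on plastic. With the mock library counted with dox, S100a10 was -0.21, S100a14 -0.04 and Anxa6 -0.23 in BME, and the S100g difference was -0.05. The S100g difference was -0.0039 with the mock library left out and -0.22 with the replicate block, which also put Anxa6 at -0.33 in BME. With lines 700 and 889 only, the S100a1 difference was 0.17. When 1 library was left out, the values that changed sign ran as follows. S100a1 ran from -0.11 to 0.79 in BME and from -0.28 to 0.42 on plastic and from -0.83 to 0.08 for the difference. S100a4 ran from -0.85 to 0.26 in BME. S100a6 ran from -0.71 to 0.26 on plastic. S100a8 ran from -0.53 to 0.03 in BME and from -0.82 to 0.62 on plastic and from -0.59 to 0.85 for the difference. S100a9 ran from -0.56 to 0.08 in BME and from -0.45 to 0.57 on plastic and from -0.21 to 0.81 for the difference. S100g ran from -0.18 to 2.79 on plastic and from -1.31 to 1.66 for the difference. S100a13 ran from -0.02 to 0.81 for the difference. Anxa13 ran from -0.99 to 2.24 in BME and from -1.31 to 1.92 for the difference.

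These few libraries per arm and the low read numbers of S100a4, S100a8, S100a9 and S100g limit what can be told, and a count of 0 calls does not show that these genes did not respond.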
